A study of Mus musculus with 2 samples.

Results

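Glycolysis, the pentose phosphate pathway and the tricarboxylic acid (TCA) cycle were described through 40 genes in nuclear RNA of mouse macrophages. The genes were chosen by symbol from a list of enzymes, a glucose transporter and regulators of these routes. The rule uses no measured value, but earlier results of these data were known when the list was chosen. They make up 40 of 55536 annotated genes, or of 22028 protein-coding genes. Glycolysis with lactate formation holds 19 of them, the pentose phosphate pathway 6, and the TCA cycle with its entry and exit enzymes 15.

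Total RNA depleted of ribosomal RNA was sequenced from the nuclear fraction of bone marrow derived macrophages of C57BL/6J mice, a common inbred strain. The cells had been exposed for 10 min to 100 ng/ml Lipid A, the part of bacterial lipopolysaccharide that Toll-like receptor 4 recognises. The labels call the fraction nucleoplasmic in one field and nuclear in another, which does not settle whether RNA on chromatin was part of it. The study has 1 group of 2 libraries, replicate 1 made from 1 µg and replicate 2 from 500 ng of RNA. Both carry the same donor identifier in separate biosamples, so the spread between them may be technical. No untreated library was analysed here, and no level below can be set against an unstimulated state.

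Glycolysis splits glucose into pyruvate, which lactate dehydrogenase reduces to lactate, while the pentose phosphate pathway draws glucose 6-phosphate away to make NADPH and pentose sugars. The TCA cycle oxidises acetyl groups in mitochondria, and citrate that leaves it feeds fatty acid synthesis. In macrophages, prolonged exposure to bacterial products is known to raise glycolysis and to divert the cycle at aconitate into itaconate, which the enzyme encoded by Acod1 makes.

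The libraries held 19153465 expected counts on annotated genes in replicate 1 and 11622346 in replicate 2. The 40 genes took 44855 of these counts in replicate 1, or 0.234%, and 24663 in replicate 2, or 0.212%. All 8 macrophage markers of a chosen list were at 1 TPM or more in both libraries, TPM being a level per length scaled to the library's sum, led by Lyz2 at 2309 and 1215 TPM and Csf1r at 532 and 505 TPM. Of the 8 neutrophil markers only S100a8 was, at 1.53 and 1.75 TPM, with S100a9 at 2.50 and 0.93 TPM and Elane, Ly6g and Retnlg at 0, and they summed to 4.59 and 3.78 TPM. All markers of B cells (5, led by Cd79b and Pax5), T and NK cells (6, led by Cd8a and Cd3d), erythroid cells (5, led by Hba-a1 and Klf1) and fibroblasts (5, led by Col1a1 and Col1a2) were below 1 TPM in both libraries. Their sums were at most 1.25 TPM per list and library, and Cd3e, Klrb1c, Nkg7, Hbb-bs, Hbb-bt and Pdgfra were among those at 0. In a second estimate that the authors deposited for the same libraries, Cd3d had 2.53 and 10.1 TPM and Cd8a 0.999 and 2.11 TPM. Cd3g had 0.424 and 1.11 TPM there, while Cd3e, Klrb1c and Nkg7 stayed below 1 TPM. In bulk RNA of this kind, fewer cells of a type and less RNA per cell cannot be told apart.

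Nearly the whole set was present in nuclear RNA. At a threshold of 1 TPM in both libraries 39 of the 40 genes were detected, beside 46.0% of all protein-coding genes. Ldhb, the heart-type lactate dehydrogenase subunit, was the exception at 0.280 TPM in replicate 1 and 0.710 TPM in replicate 2, from 6.82 and 7 expected counts. Since TPM divides counts by transcript length, levels can be compared between genes, as far as the estimated split of counts among a gene's transcripts holds. Short transcripts can weigh heavily: Hk3-205, of 639 bases, made up 32.8 of the 124 TPM of Hk3 in replicate 1.

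Glycolytic and pentose phosphate genes lay higher than those of the TCA cycle. The median glycolytic gene stood at 28.0 TPM in replicate 1 and 21.1 TPM in replicate 2 (24.5 ± 4.91, SD, n = 2). The pentose phosphate median was 25.1 and 20.0 TPM (22.6 ± 3.63, SD, n = 2), and the median of the TCA cycle and linked genes was 12.2 and 10.8 TPM (11.5 ± 0.976, SD, n = 2). In each library the TCA median lay below both others, while the glycolytic and pentose phosphate medians differed by less than their spread. All 40 genes together had a median of 20.9 and 17.3 TPM, against 10.4 and 9.54 TPM for protein-coding genes averaging 1 TPM or more. At least 20 TPM in both libraries was reached by 10 of 19 glycolytic, 3 of 6 pentose phosphate and 3 of 15 TCA and linked genes. That makes 16 of the 39 detected genes, beside 26.6% of detected protein-coding genes. With 2 libraries and no second condition, these levels were described and not tested.

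**Figure D1:**
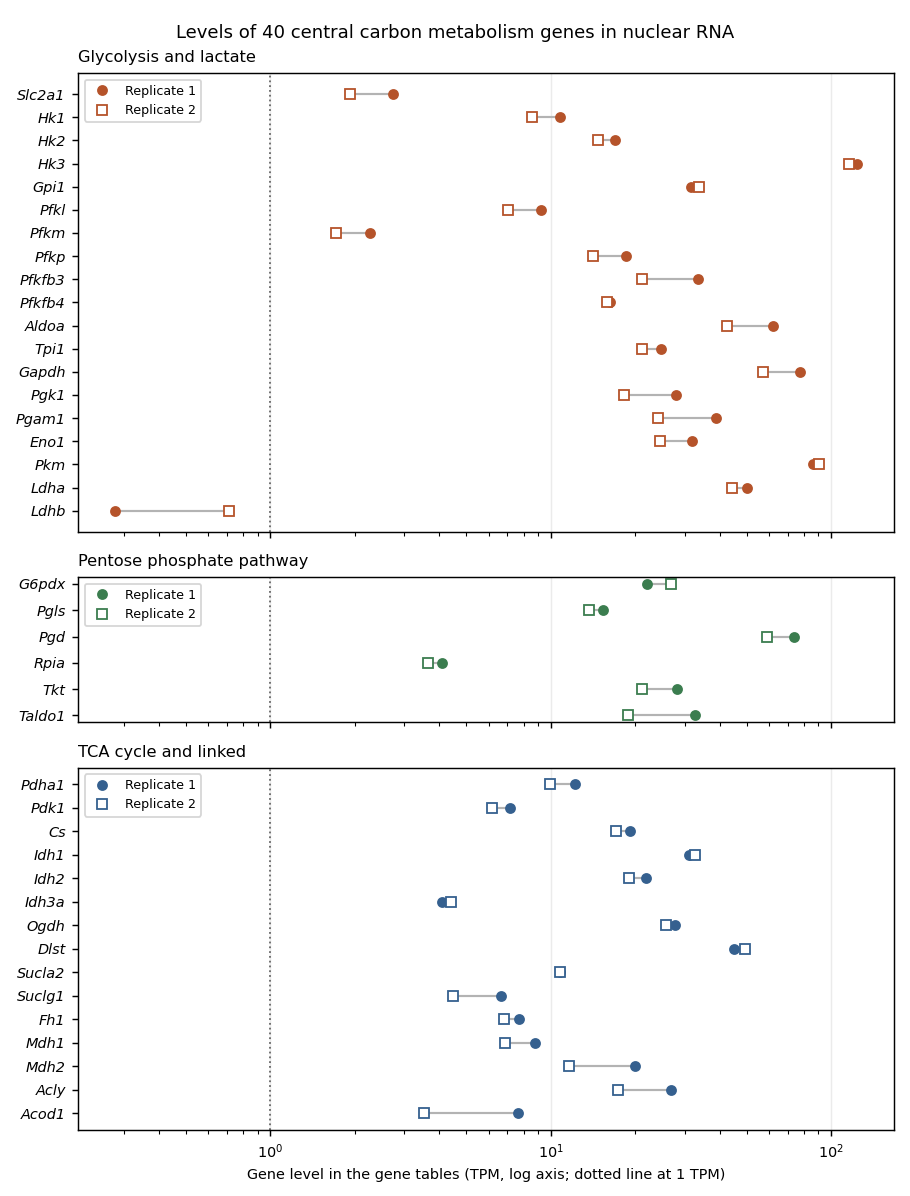
Level of each of the 40 genes in the gene tables (TPM, log axis), with replicate 1 as filled circles and replicate 2 as open squares, joined by a grey line, in the 3 routes. Hk3 and Pkm lie furthest right and Ldhb alone lies left of the dotted line at 1 TPM.

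Among the genes that bring glucose into the pathway, Hk3 stood far above the rest. Hk3 encodes hexokinase 3, which phosphorylates glucose and is known as the hexokinase of myeloid cells. The gene (ENSMUSG00000025877.14, mm10 chr13:55005985-55021385, minus strand) had 124 TPM in replicate 1 and 116 TPM in replicate 2 (120 ± 5.83, SD, n = 2), the highest level of all 40 and above 97.6% of detected protein-coding genes. Hk2, the inducible muscle-type hexokinase, had 17.0 and 14.7 TPM, and Hk1, the broadly expressed form, 10.8 and 8.59 TPM. Hk3 was thus 11.5-fold and 13.5-fold above Hk1 and 7.30-fold and 7.87-fold above Hk2 in replicates 1 and 2. It made up 81.7% and 83.3% of the TPM of the 3 hexokinases, and 86% and 86.7% in the second quantification, a separate estimate that the authors deposited for the same libraries. Slc2a1, which encodes the glucose transporter GLUT1, was low at 2.74 and 1.93 TPM.

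At the hexose phosphate steps, Gpi1 (glucose 6-phosphate isomerase) had 31.6 and 33.7 TPM. The committed step is catalysed by phosphofructokinase, whose platelet-type gene Pfkp had 18.6 and 14.2 TPM. The liver-type Pfkl followed at 9.24 and 7.05 TPM and the muscle-type Pfkm at 2.26 and 1.72 TPM. Pfkp held 61.7% and 61.8% of the family, Pfkl 30.7% in both libraries, and Pfkm 7.52% and 7.5%. The shares thus moved less between libraries than the levels did. They count all transcripts, and coding transcripts made up 23.8% and 37.2% of Pfkp, against 47.3% and 50.4% of Pfkl. Pfkfb3 and Pfkfb4 encode bifunctional enzymes that set fructose 2,6-bisphosphate, the activator of phosphofructokinase. Pfkfb3 had 33.4 and 21.2 TPM and Pfkfb4 16.3 and 15.9 TPM, which put Pfkfb3 at 67.1% of their sum in replicate 1 and 57.1% in replicate 2 (62.1 ± 7.08%, SD, n = 2).

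The triose phosphate steps held most of the abundant glycolytic genes. Pkm, encoding pyruvate kinase, had 86.5 TPM in replicate 1 and 90.5 TPM in replicate 2 (88.5 ± 2.84, SD, n = 2), the second highest mean of the list, and did not overlap Hk3. Gapdh, which oxidises glyceraldehyde 3-phosphate, had 77.2 and 57.1 TPM (67.1 ± 14.2, SD, n = 2), and Aldoa, the aldolase that cleaves the hexose, 62.0 and 42.5 TPM (52.2 ± 13.8, SD, n = 2). Both were higher in replicate 1. Pgam1 (phosphoglycerate mutase) had 38.9 and 24.1 TPM, Eno1 (enolase) 31.8 and 24.6 TPM, Pgk1 (phosphoglycerate kinase) 28.0 and 18.2 TPM and Tpi1 (triose phosphate isomerase) 24.8 and 21.1 TPM. Pyruvate to lactate was represented by Ldha alone, at 50.3 and 44.2 TPM, or 99.4% and 98.4% of the Ldha and Ldhb sum. A second identifier carrying the symbol Aldoa had 0 and 0.130 TPM and was left out.

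**Figure D2:**
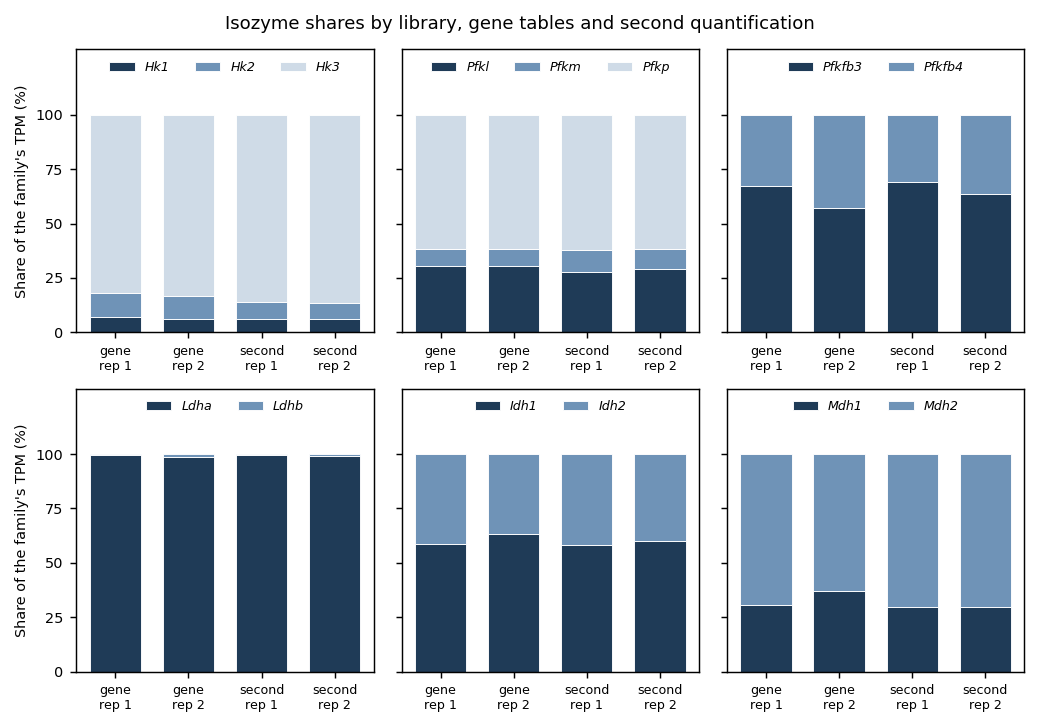
Share of each family's TPM (%) held by each isozyme, for replicates 1 and 2 in the gene tables and in the second quantification. Hk3, Pfkp, Pfkfb3, Ldha, Idh1 and Mdh2 lead their families in all 4 bars, with Pfkfb3 between 57.1% and 68.9%.

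Pyruvate kinase shows which splice form of the gene the nuclear RNA carried. Pkm uses either of 2 mutually exclusive exons of the same length, the M1 exon of adult muscle and brain or the M2 exon of proliferating and many immune cells, and M2 differs from M1 in being allosterically regulated. The gene (ENSMUSG00000032294.17) spans chr9:59656368-59679375 on the plus strand. The exons are given below from the mm10 genome (GENCODE M21 annotation), plus strand, because they alone set the enzyme forms apart. Each is coding, is exon 9 of its transcript and spans 167 bases, the M1 exon at chr9:59675029-59675195 in transcript Pkm-202 and the M2 exon at chr9:59675568-59675734 in transcript Pkm-201. Capitals mark the 64 positions at which they differ when laid side by side without gaps, and the other 103 positions (61.7%) are the same.
Pkm M1 exon: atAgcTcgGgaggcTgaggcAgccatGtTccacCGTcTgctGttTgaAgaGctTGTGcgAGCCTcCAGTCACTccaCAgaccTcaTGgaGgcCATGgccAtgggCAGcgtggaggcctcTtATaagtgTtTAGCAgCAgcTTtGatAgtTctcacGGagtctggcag
Pkm M2 exon: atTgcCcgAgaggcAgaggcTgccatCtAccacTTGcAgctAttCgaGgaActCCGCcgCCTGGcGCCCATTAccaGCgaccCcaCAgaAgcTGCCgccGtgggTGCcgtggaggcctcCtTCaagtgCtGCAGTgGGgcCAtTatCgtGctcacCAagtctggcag

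The M2 transcript was the main form in both libraries. Pkm-201 had 55.8 TPM in replicate 1 and 60.5 TPM in replicate 2, against 8.96 and 3.11 TPM for Pkm-202, the M1 transcript. Of these 2 full-length transcripts the M2 form made up 86.2% and 95.1% (90.6 ± 6.33%, SD, n = 2), and 86.4% and 95.1% in the second quantification. Relative to its size, the M1 level differed more between libraries than the M2 level. The M1 exon is also part of Pkm-203, a retained intron transcript at 0.280 and 1.27 TPM, while the M2 exon belongs to Pkm-201 only. The transcripts also differ in length at both ends, where Pkm-201 reaches further than Pkm-202, so the estimated shares can rest on reads there as well as on these exons. The tables do not give how many reads crossed the exons.

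**Figure D3:**
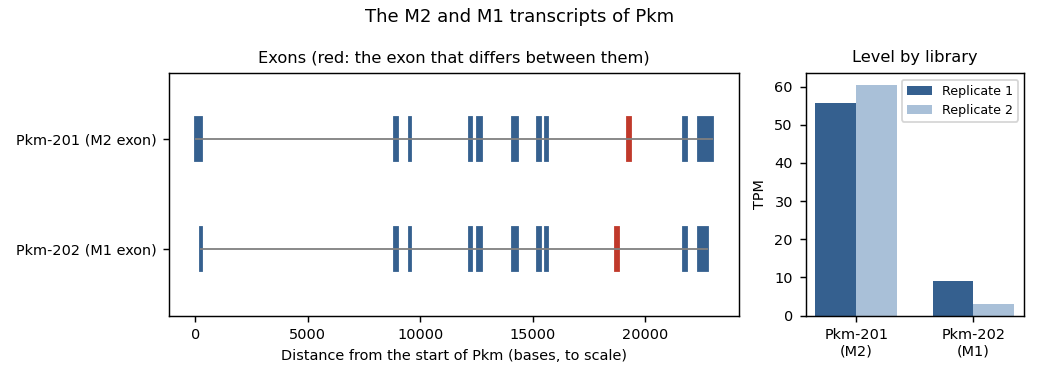
Exons of Pkm-201 and Pkm-202 drawn to scale by distance from the start of the gene, with the differing exon in red (left), and the TPM of both transcripts in replicates 1 and 2 (right). The M2 transcript stands at 55.8 and 60.5 TPM and the M1 transcript at 8.96 and 3.11 TPM.

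In the pentose phosphate pathway the oxidative branch makes NADPH. Pgd, encoding 6-phosphogluconate dehydrogenase, was its most abundant gene at 73.7 TPM in replicate 1 and 59.0 TPM in replicate 2 (66.4 ± 10.4, SD, n = 2), a mean that differed from that of Gapdh by less than their spread. G6pdx, the dehydrogenase that opens the branch, had 22.1 and 26.8 TPM, and Pgls, the lactonase between them, 15.4 and 13.7 TPM. Pgd exceeded G6pdx by 3.34-fold and 2.20-fold. The non-oxidative branch returns pentoses to glycolysis through transketolase and transaldolase. Taldo1 (transaldolase) had 32.8 and 18.9 TPM, Tkt (transketolase) 28.2 and 21.1 TPM, and Rpia (ribose 5-phosphate isomerase) 4.10 and 3.64 TPM. In TPM all 3 were higher in replicate 1 and G6pdx was higher in replicate 2. In counts scaled by TMM, a library normalization that does not divide by length, the difference of G6pdx turned to 0.06 (counting interval -0.09 to 0.22) and that of Rpia to -0.11 (-0.46 to 0.25), so neither direction was settled.

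Pyruvate enters the cycle through pyruvate dehydrogenase, whose catalytic alpha subunit Pdha1 had 12.2 and 9.90 TPM. Pdk1, a kinase that switches this complex off, had 7.16 and 6.17 TPM. Cs, citrate synthase, had 19.1 and 17.1 TPM. The NADP-linked isocitrate dehydrogenases were higher than the listed subunit of the NAD-linked one: Idh1, the cytosolic enzyme, had 31.1 and 32.8 TPM and Idh2, the mitochondrial one, 21.9 and 19.0 TPM, against 4.11 and 4.41 TPM for Idh3a. Idh1 held 58.7% and 63.3% of the Idh1 and Idh2 sum. Idh3a is the catalytic alpha subunit of the enzyme that runs the cycle, and Idh1 was 7.57-fold and 7.44-fold above it. Its partner subunit Idh3b, outside the list of 40, had 33.3 and 38.0 TPM; the subunits of this enzyme were thus at unequal levels.

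The highest level among the TCA genes of the list belonged to the oxoglutarate dehydrogenase complex. Dlst, its succinyltransferase core, had 44.9 TPM in replicate 1 and 49.5 TPM in replicate 2 (47.2 ± 3.25, SD, n = 2), and Ogdh, its first subunit, 27.7 and 25.8 TPM. Over all transcripts, Dlst was 1.62-fold and 1.92-fold above Ogdh in TPM. Its expected counts, 1752 and 1190, were slightly below the 1828 and 1216 of Ogdh. Only 23.9% and 20.6% of the TPM of Dlst lay on its coding transcript Dlst-201, at 10.7 and 10.2 TPM. The coding Ogdh-201 had 16.2 and 19.4 TPM, so between these 2 transcripts the order was reversed. Downstream, Sucla2 (the ADP-forming beta subunit of succinyl-CoA synthetase) had 10.8 TPM in both libraries, and Suclg1 (its alpha subunit) 6.65 and 4.47 TPM. Fh1 (fumarase) had 7.69 and 6.83 TPM. Over all transcripts, the mitochondrial Mdh2 led malate dehydrogenase at 19.9 and 11.6 TPM, above the cytosolic Mdh1 at 8.82 and 6.88 TPM. Mdh2 thus held 69.3% and 62.8% of their sum. The coding transcripts Mdh2-201 and Mdh1-201 had 7.41 and 7.86 TPM in replicate 1, and 5.81 and 3.51 TPM in replicate 2. The order of these transcripts thus differed between libraries.

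Of the enzymes that draw on the cycle, Acly, which splits exported citrate into acetyl-CoA, had 26.9 and 17.4 TPM. Acod1, the enzyme that makes itaconate, had 7.65 TPM in replicate 1 and 3.53 TPM in replicate 2 (5.59 ± 2.91, SD, n = 2), from 412 and 123 expected counts. The deposited intervals were 6.59 to 7.99 TPM in replicate 1 and 2.73 to 3.88 TPM in replicate 2, and did not overlap. Only 29.3% of detected protein-coding genes lay below its mean. Acod1 (ENSMUSG00000022126.6, mm10 chr14:103046977-103056573, plus strand) has 1 annotated transcript, so its level does not depend on how counts were shared among isoforms. Replicate 1 was higher by 0.83 in log2(TPM + 1) relative to the median gene, the largest difference of the list, and by 0.51 in the second quantification, where the levels were 3.22 and 2.84 TPM.

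The libraries were next compared gene by gene. The difference was taken as log2(TPM + 1) in replicate 1 minus replicate 2 and set relative to the median of the 13951 genes that averaged 1 TPM or more, which itself stood at 0.102 in favour of replicate 1. Of the 39 genes above that mean, 29 lay above the median gene and 10 below it, beside 50.0% of all genes above it by construction. The median difference was 0.16 over the list, 0.22 for glycolysis (14 of 18 above), 0.13 for the pentose phosphate pathway (5 of 6 above) and 0.08 for the TCA cycle (10 of 15 above). The median size of the difference regardless of direction was 0.19, against 0.22 for all genes. The list therefore spread between libraries about as much as other genes, with its centre shifted toward replicate 1. In the second quantification the median gene stood at -0.372, in favour of replicate 2. Relative to it the shift of the list was smaller, at a median of 0.09 with 23 genes above and 16 below. Before this centring, the median of each route was higher in replicate 2 there, for glycolysis 13.3 TPM in replicate 1 and 16.4 TPM in replicate 2. In TMM-scaled counts 29 genes were again above and 10 below, but 10 genes changed side, namely G6pdx, Gpi1, Hk3, Pdha1, Pdk1, Pfkfb4, Pfkp, Pgls, Rpia and Sucla2. Over the 40 genes, Pearson's r between the libraries was 0.978 and Spearman's rho 0.965 on log2(TPM + 1), against 0.935 and 0.937 over the 13951 genes, as a description across genes that are not independent.

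More than 1.5-fold separated the libraries for 3 genes, all higher in replicate 1, beside 7.76% of all genes. They were Acod1 at 0.83, Taldo1 at 0.66 and Mdh2 at 0.63. None of these 3 passed 1.5-fold in the second quantification, where Slc2a1, at 0.60, was the only gene that did. In TMM-scaled counts 4 genes did, these 3 and Mdh1, at 0.81 (counting interval 0.51 to 1.14) against 0.22 in TPM. No gene of the list was more than 1.5-fold lower in replicate 1, beside 4.84% of all genes, and the lowest in TPM was G6pdx, at -0.37, whose direction turned in TMM-scaled counts. The deposited intervals lay apart with replicate 1 higher for 15 of the 39 genes, beside 16.8% of all genes, and with replicate 1 lower for 0, beside 4.22%. These intervals are not corrected for the overall shift between libraries, and they narrow as counts grow, which the list's higher levels bring with them. The 15 included Gapdh, Aldoa, Pgam1, Pgk1 and Eno1 of the triose phosphate steps, where 6 of 7 genes lay above the median gene (Pkm, at -0.17, did not). Hk3 and Cs were also among the 15, although relative to the median gene they differed by 0.00 and 0.04. The macrophage markers lay the same way, with a median difference of 0.45 and 6 of 8 above the median gene, among them Lyz2 at 0.82. Depth and starting RNA differed between the libraries in the same direction, and their part in these differences was not tested.

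**Figure D4:**
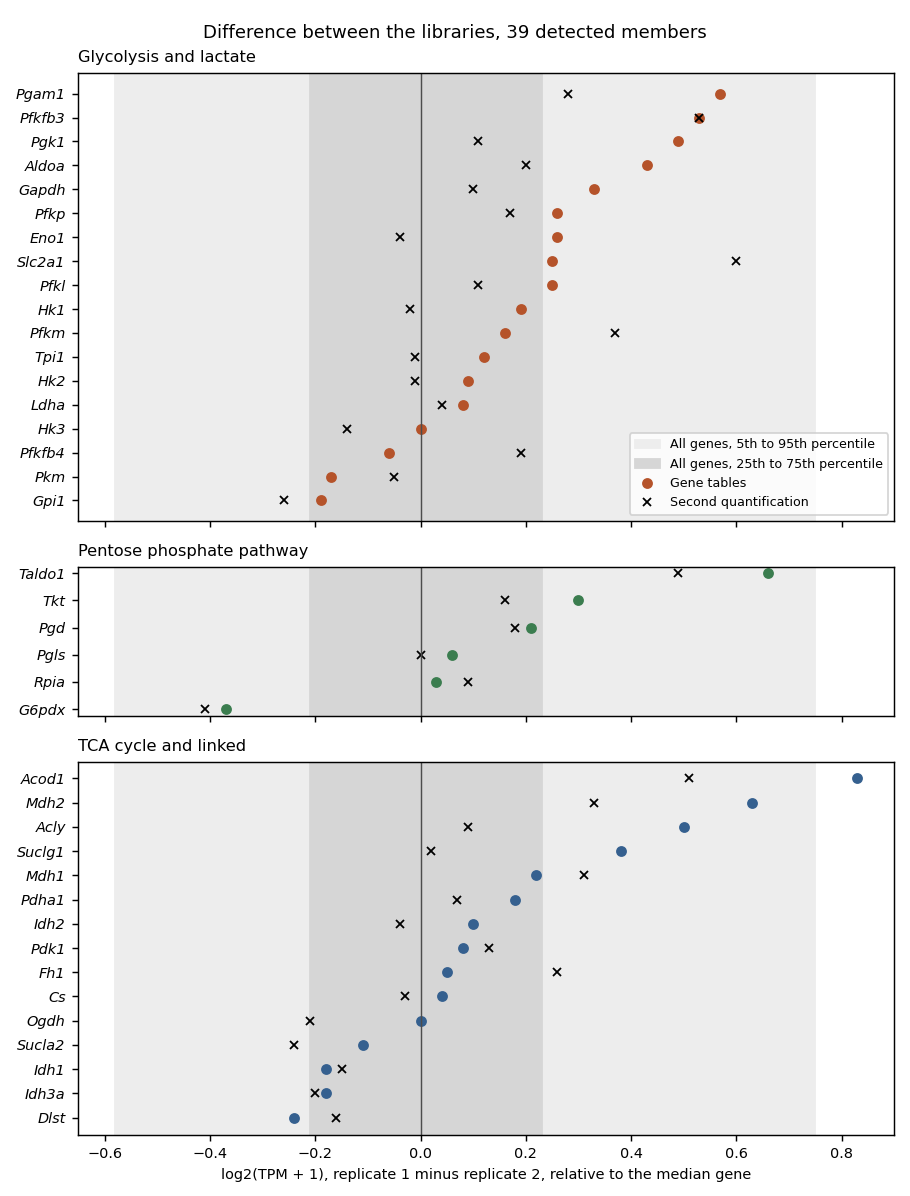
Difference between the libraries in log2(TPM + 1), replicate 1 minus replicate 2 relative to the median gene, for the 39 detected genes in the gene tables (filled circles) and in the second quantification (crosses). Grey bands show the 5th to 95th and 25th to 75th percentiles of all 13951 genes, and of the circles only Acod1, at 0.83, lies beyond the outer band, which ends at 0.75.

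Nuclear RNA can hold transcripts whose introns are not yet, or not fully, removed. The annotation holds retained intron transcripts for some genes only, and some cover part of a gene, such as Cs-202 with 1 exon. Shares on these transcripts are therefore no direct measure of incomplete splicing. Of the TPM of the 40 genes, 66.3% and 60.4% lay on transcripts annotated as protein coding, against 72.9% and 72.0% for all protein-coding genes. Retained intron transcripts took 20.3% and 22.5%, against 19.6% and 19.9% for all protein-coding genes. Transcripts with no annotated reading frame, called processed transcripts, took 9.93% and 11.0%, against 5.11% and 5.41%, and targets of nonsense-mediated decay 3.41% and 6.13%, against 2.35% and 2.70%. The retained intron share of the list was thus close to that of other genes, and the processed transcript share about 2 times theirs in these tables. These are shares of summed TPM, 1099 and 927 TPM for the list, so abundant genes weigh most. Hk3 alone brought 32.8 and 34.3 TPM of processed transcript (Hk3-205) and 26.6 and 41.1 TPM of decay target (Hk3-204). In the second quantification the processed transcript shares lay closer, at 15% and 16.2% for the list against 12.1% and 10.5% for all protein-coding genes. Among the routes, the pentose phosphate genes had the largest retained intron share at 30.7% and 33.7%, followed by the TCA cycle at 20.7% and 22.2% and glycolysis at 17.5% and 19.8%. By expected counts the pentose phosphate share was again the largest, at 31.2% and 37.4%, but glycolysis, at 14.4% and 17.4%, lay above the TCA cycle, at 11.0% and 11.1%.

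Retained intron transcripts are annotated for 30 of the 40 genes, and in 13 of these they took more than 30% of the gene's TPM in both libraries, beside 46.9% of detected protein-coding genes with such a transcript. In 2 they took more than 50%, beside 16.9%. Idh3a stood at 84.2% and 83.9%, nearly all on Idh3a-203 (1.79 and 2.02 TPM) and Idh3a-202 (1.67 and 1.68 TPM), and its full coding transcript Idh3a-201 had 0.650 and 0.710 TPM. Pfkp stood at 75.2% and 62.8%, with Pfkp-212 at 4.41 and 4.76 TPM as its most abundant transcript. In the second quantification the retained intron share was 75% and 68.3% for Idh3a and 60.6% and 46.2% for Pfkp. Tkt had the lowest coding share, 11.6% and 14.8%, with Tkt-209, a processed transcript, at 14.0 and 4.80 TPM above the coding Tkt-201 at 3.27 and 3.12 TPM. At the other end of the detected genes, Acod1, Idh1 and Pfkm lay wholly on protein coding transcripts, which are the only kind annotated for them.

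Hk3 shows how the total of a gene can be steadier than its parts. Its total was 124 and 116 TPM, while the full-length coding Hk3-201 had 15.5 TPM in replicate 1 and 0.690 TPM in replicate 2. The decay target Hk3-204 had 26.6 and 41.1 TPM, the coding Hk3-208 had 45.5 and 35.5 TPM, and the processed transcript Hk3-205, of 3 exons, had 32.8 and 34.3 TPM. Protein coding transcripts therefore made up 50.1% of Hk3 in replicate 1 and 32.9% in replicate 2. The transcript estimates of G6pdx parted in a like way, with the processed transcript G6pdx-202 at 0.560 TPM in replicate 1 and 12.1 TPM in replicate 2.

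**Figure D5:**
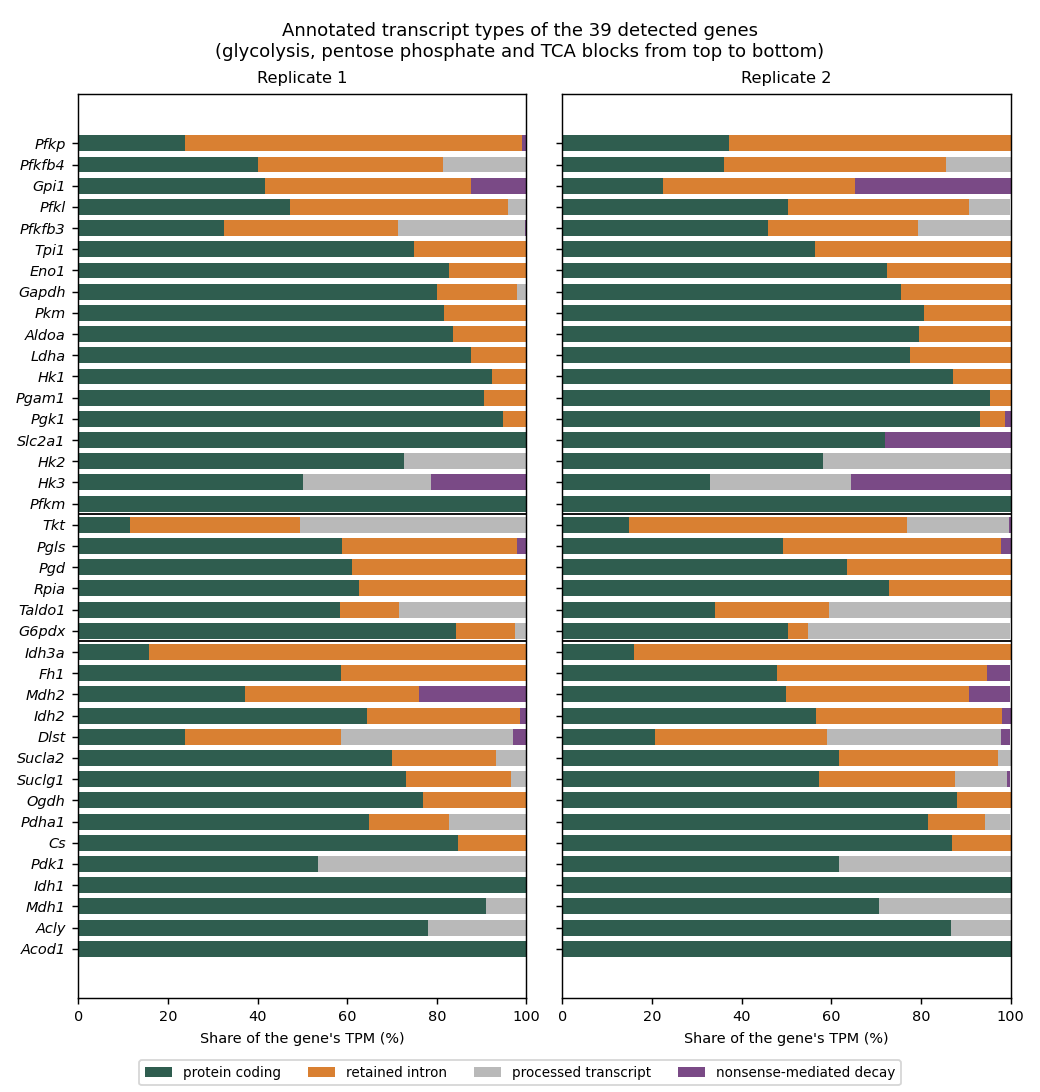
Share of each gene's TPM (%) by annotated transcript type in replicate 1 (left) and replicate 2 (right) for the 39 detected genes, ordered within each route by their mean retained intron share. Idh3a (84.2% and 83.9%) and Pfkp (75.2% and 62.8%) show the longest retained intron bars.

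Several of these genes have near-identical copies or overlap another gene, which bears on how reads were shared. A sequence search found 88 annotated pseudogenes with at least 95% identity over at least 300 bases for 9 of the 40 genes, 74 of them copies of Gapdh. The Gapdh copies held 10.8% and 10.1% of the counts of the gene and its copies together, those of Pgk1 9.30% and 7.72%, and those of Pgam1 1.42% and 1.13%. For Gpi1, Tpi1, Eno1, Pkm and Ldha these pseudogenes held less than 1% in both libraries, and for Ldhb, with few counts in all, 14.8% and 0%. Eno1b, a further copy of Eno1 outside this search, had 12.8 and 13.6 expected counts, beside 1177 and 555 for Eno1. Exons of 15 genes overlap exons of another annotated gene, on the opposite strand for 12 of them, such as Hk3 with Unc5a (5.69 and 4.85 TPM), Gapdh with Iffo1 (34.8 and 34.5 TPM) and G6pdx with Ikbkg (12.9 and 10.1 TPM). Pkm overlaps the same-strand Gm49759 (16.4 and 15.7 TPM). The sources used here do not say how strand was handled, and levels of overlapping genes are uncertain to that extent.

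The second quantification placed the same genes lower as a whole. Its mean TPM differed from that of the gene tables by a median of -0.41 in log2(TPM + 1) over the 39 genes, against -0.40 over protein-coding genes, so the offset was close to that of other genes. Gapdh was the only gene more than 2-fold lower, beside 1.72% of protein-coding genes, with 28.1 and 34.1 TPM in the second quantification against 77.2 and 57.1 TPM in the gene tables (difference -1.08). The number of genes more than 2-fold apart in either direction was 10 with replicate 1 alone, 0 with replicate 2 alone, and 0 once the common offset was removed. None was more than 2-fold higher, beside 1.71% of protein-coding genes. Hk3 remained the highest gene, at 86.2 and 123 TPM, followed by Pkm at 59.4 and 79.8 TPM.

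Further genes of the same routes lay lower at the median than the 40. The further glycolytic genes had a median of 1.87 and 1.66 TPM, the pentose phosphate ones 4.40 and 3.65 TPM and the TCA ones 8.10 and 8.24 TPM. Of 27 further glycolytic genes 16 were detected, led by Eno2 (13.4 and 14.8 TPM), an enolase known from neurons, Pfkfb2 (13.1 and 14.4 TPM), a relative of Pfkfb3, and Adpgk (10.8 and 11.6 TPM), a glucose-phosphorylating enzyme that uses ADP. Fbp1, Fbp2, Hkdc1, Ldhc and Pgk2 were among those listed at 0 in both libraries. Of 6 further pentose phosphate genes 4 were detected, with Rpe, ribulose phosphate epimerase, highest at 14.2 and 14.9 TPM, followed by Rbks, ribokinase, at 6.43 and 7.13 TPM and H6pd, the dehydrogenase of the endoplasmic reticulum, at 8.04 and 5.34 TPM.

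Of 29 further TCA genes 23 were detected, and Me3, Pdha2 and Pdk4 were listed at 0 in the gene tables, Me3 having 1.65 and 3.29 TPM in the second quantification. Sdha, the catalytic subunit of succinate dehydrogenase, had 56.2 and 50.2 TPM, above every TCA gene of the list, and Mpc1, part of the mitochondrial pyruvate carrier, 43.0 and 44.3 TPM. The median differences between libraries of these further genes were 0.00 for glycolysis, -0.04 for the pentose phosphate pathway and -0.14 for the TCA cycle. In the TPM of the gene tables the listed genes, at 0.22, 0.13 and 0.08, lay above the median gene in all 3 routes, and these further genes lay at or below it. The listed TCA genes stood closer to the median gene in TMM-scaled counts, at 0.03, and in the second quantification, at 0.02. Whether the lists differ was not tested.

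Factors known to control these genes through oxygen and sugar were present as well, 8 of 11 at 1 TPM or more in both libraries. Txnip, a glucose-induced inhibitor of glucose uptake, led at 143 and 110 TPM, above every gene of the list in replicate 1. Hif1a, which drives glycolytic genes when oxygen is low or in inflammation, had 19.0 and 15.5 TPM, and its partner Arnt 28.9 and 31.4 TPM. Mlxip, a sugar-sensing factor, had 24.0 and 24.7 TPM. The prolyl hydroxylases that mark Hif1a for decay were at 14.6 and 11.4 TPM for Egln2 and 4.78 and 3.27 TPM for Egln1, and Vhl, which recognises the mark, at 3.07 and 2.63 TPM. Myc, which also acts on glycolytic genes, had 3.08 and 1.79 TPM.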

How the data were processed

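Per the labels, total RNA depleted of ribosomal RNA was sequenced from nuclear RNA of 2 macrophage libraries of 1 group, with replicate numbers from the labels. Each library came with 3 tables deposited by the authors on mm10 with GENCODE M21 annotation: genes, transcripts in the same format, and transcripts quantified a second time. The sources used here do not name the programs; the columns of the gene tables and their transcript tables are named as RSEM writes them, and those of the second tables, called the second quantification and summed per gene here, as kallisto writes them. The deposited expected counts are fractional estimates of reads per feature, rounded here before edgeR and DESeq2. In the deposited TPM the entries of each table share 1 fixed total. The interval bounds that the authors deposited (95%), held as a signal, are centred near the posterior mean, so a gene's TPM may fall outside them, as for Hk1 (10.8 TPM, bounds 11.8 and 16.7). Entries that name no annotated gene (1.18% of counts in replicate 1 and 0.405% in replicate 2) were left out of counts and library sizes.

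The 40 genes and the other lists were chosen with earlier results of these data known. All 40 symbols matched; Aldoa matched 2 identifiers. All 40 were named; of other lists, the 3 highest of each pathway list, factors at 1 TPM or more in both libraries and the 2 highest of each marker list. Detection required 1 TPM in both libraries. Differences used a pseudocount of 1 and the median gene as centre. A difference between single libraries allows no p-value, and this scale understates fold changes of low genes. Without molecular identifiers, intervals cover counting error only. The difference script was tested on simulated data. Pseudogene copies were found with BLAST 2.17.0 (at least 95% identity over 300 bases). Scaling alternatives used edgeR 4.0.16 (TMM) and DESeq2 1.42.0 in R 4.3.3; the rest used Python 3.11.15 with pandas 2.3.3, numpy 2.4.6 and matplotlib 3.10.9. Other detection thresholds, pseudocounts, filters and scalings, posterior mean TPM, the second quantification and each library alone were tried as alternatives. Some genes of the other lists are not reported here.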

Additional observations from a re-analysis of the deposited data

How the results depend on the processing

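With 2 libraries of 1 group, no value above carries a test, and depth limits the low genes most, such as Ldhb with 6.82 and 7 counts. The number of detected genes ranged from 33 at 5 TPM to 40 at 0.1 TPM. Median levels depended on the table used. In the second quantification they were 14.8 TPM for glycolysis, 15.7 TPM for the pentose phosphate pathway and 9.75 TPM for the TCA cycle. After rescaling TPM over protein-coding genes they were 81.1, 74.6 and 38.1 TPM. The TCA median stayed lowest, but the other 2 changed order in the second quantification. They also changed order in the gene tables when each gene's mean was taken first. The medians were then 23.1 TPM for glycolysis, 24.5 TPM for the pentose phosphate pathway and 11.1 TPM for the TCA cycle. The median difference between libraries stayed above 0 for the 40 genes and each route under every pseudocount, filter and scaling tried. For the TCA cycle it fell to 0.03 in TMM-scaled counts. Relative to its own median gene, the second quantification gave 0.11 for glycolysis, 0.13 for the pentose phosphate pathway and 0.02 for the TCA cycle. The count of genes more than 1.5-fold apart between libraries, 3, became 0 at 2-fold, 1 in the second quantification and 4 in TMM-scaled counts. The count more than 2-fold apart between quantifications, 1, ran from 0 to 10 with a single library, became 13 at 1.5-fold and, in an alternative added after seeing the data, 0 once both were centred on the median protein-coding gene. The protein coding share of the list, 63.3% on average, was 55.2% in the second quantification and 71.9% of expected counts, and the retained intron share, 21.4%, was 24.3% and 17.2%. The causes were not tested. Of the remaining single-family shares, 25 recomputed values stayed within the spread between libraries and 9 did not. The 25 include the values of single libraries, which lie within that spread by construction, so their number is no measure of stability. The leading isozyme kept its lead in each, but no alternative was limited to coding transcripts. The shares of the Pkm forms under other tables and the search for pseudogene copies by sequence were also added after seeing the data. No paired analysis was possible because there is 1 group, with no second condition to pair.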

Other observations

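Some genes outside the list, named here after their values were seen, stood apart in 1 table or library. Slc2a6, a glucose transporter of macrophage lysosomes, had 6.97 TPM in replicate 1 and 2.68 TPM in replicate 2, a difference of 1.01 relative to the median gene in log2(TPM + 1), and 0.74 in the second quantification. Slc2a6 was thus further apart between libraries than any of the 40 genes. Pcx, pyruvate carboxylase, which refills the cycle from pyruvate, had 13.0 and 12.3 TPM in the second quantification against 0.150 and 0.110 TPM in the gene tables. Cd3d, a T cell marker, had 2.53 and 10.1 TPM in the second quantification against 0 and 0.10 TPM in the gene tables. The subunits of succinate dehydrogenase were at unequal levels, with Sdha at 56.2 and 50.2 TPM, Sdhb at 20.7 and 16.9 TPM, Sdhd at 15.1 and 8.90 TPM and Sdhc at 6.51 and 8.41 TPM. Of the monocarboxylate carriers that export lactate, Slc16a3 had 5.92 and 4.67 TPM and Slc16a1 1.36 and 1.2 TPM.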
